A study of Mus musculus with 34 samples.

Results

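The peroxisome proliferator-activated receptors and the retinoid X receptors were followed through 14 RNA-Seq libraries of immortalized mouse brown preadipocytes. The 6 members are the genes *Pparg*, *Ppara*, and *Ppard* of the PPAR family and *Rxra*, *Rxrb*, and *Rxrg* of the RXR family, chosen by name among 23109 genes. All 6 were present in the files, and each was represented by its RefSeq transcript with the highest mean value over the 14 libraries. PPARs are ligand-activated transcription factors that bind DNA as heterodimers with an RXR, so that every PPAR target gene depends on a partner from the second family. PPARγ is the master regulator of fat cell formation and the receptor of the drug rosiglitazone, PPARα and PPARδ are better known for driving genes of fatty acid oxidation, and RXRs bind 9-cis retinoic acid and also pair with receptors for thyroid hormone, vitamin D, retinoic acid, and oxysterols. In brown fat, PPARγ and C/EBPα maintain each other's expression, and PPARα is a feature of mature brown fat.

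All cells were C57BL/6J brown preadipocytes from the interscapular fat of newborn pups, immortalized with SV40T and labelled as carrying a floxed glucocorticoid receptor gene. In the first experiment, retrovirus carried FLAG-tagged histone H3.3, either WT or K36M, a substitution that blocks H3K36 methylation. Cells were collected at day 0 (D0), D2, and D7 of adipogenesis, which was induced with insulin, T3, IBMX, dexamethasone, and indomethacin. From D2 on, the medium kept insulin and T3 but not the other inducers, so changes from D2 to D7 span this switch. In the second, WT or K36M cells also carried a retrovirus with PPARγ and received DMSO or rosiglitazone (Rosi), a synthetic PPARγ ligand. In the third, lentivirus delivered an shRNA, either a control one (Ctrl) or one that targets *Nsd2*, the gene of an H3K36 methyltransferase (Nsd2 KD), with cells collected at D0 and D2. The labels put the DMSO cells at time 0 and the Rosi cells at 24 h, whereas the study's text can be read as equally long treatment with either. If the labels hold, ligand and time cannot be told apart. Cells carrying an empty vector in place of PPARγ were not analysed here. There was 1 library per condition, no difference has a replicate check, and no p-value is given.

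Values are RPKM, the reads of a transcript divided by transcript length and by library depth, as the authors deposited them. Whole reads were recovered from these values, with 12213559 to 24365867 mapped reads per library. Brackets after a level or a log2 ratio hold its 95% interval from these reads. They hold the error of counting alone, so they set one library against another rather than condition against condition. A gene was called at a ratio over 2-fold. The WT and Ctrl cells are both controls, from different experiments and with different vectors, and the ratio between them is given as a measured difference between control libraries. *Nsd2* had an RPKM of 5.85 in Nsd2 KD and 19.9 in Ctrl cells at D0, and of 7.01 and 29.0 at D2. Adipocyte markers summed to between 10.1 and 3589 RPKM and preadipocyte markers to between 37.2 and 679. Most adipocyte markers are also in the list of PPARγ targets used below. The 8 brown adipocyte markers summed to between 10.3 (Ctrl D0) and 38.7 RPKM (WT D2), with 2 to 5 of them at 1 RPKM or more. Among them, *Ucp1* and *Cidea* had at most 5 reads in any library. Macrophage markers (5 of the 6 listed genes found) summed to at most 3.34 RPKM, endothelial markers to at most 2.47, and skeletal muscle markers to at most 67.7, of which 67.5 was the actin gene *Acta1* in PPARγ K36M cells with DMSO. In bulk samples, fewer cells of a type and less RNA per cell cannot be told apart.

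*Pparg* lies on chromosome 6 from 115311239 to 115440419 on the plus strand (mm9) and is transcribed from separate starts into 2 deposited transcripts. The γ1 transcript (NM_001127330, 1857 bases) has 2 noncoding exons of its own with 215 bases. The γ2 transcript (NM_011146, 1769 bases) has 1 exon of its own with 127 bases at chr6:115372084-115372210, and 82 of these are coding. They encode the amino-terminal end that distinguishes PPARγ2, the adipose-enriched protein carried by the vector of the second experiment, and start with the ATG in capitals.
γ2-only coding bases, chr6:115372129-115372210, plus strand, mm9: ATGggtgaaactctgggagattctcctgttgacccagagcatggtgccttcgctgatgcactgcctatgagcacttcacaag

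The RefSeq promoter table (GRCm38.p6) gives 3 starts for *Pparg*, and the first bases of the γ2 exon were found at the third. Those of the first γ1 exon were found at none of the 3. The 250 bases before the most upstream start and before the γ2 start are shown because these starts differ in make-up. No expression level was tied to either start. Capitals mark matches on either strand to the core letters AGGTCA that a PPAR or RXR recognises, to the C/EBP motif TTGCNNAA, and to the CCAAT box, which can overlap each other.
Pparg, most upstream start, chr6:115360894-115361143, plus strand, GRCm38.p6: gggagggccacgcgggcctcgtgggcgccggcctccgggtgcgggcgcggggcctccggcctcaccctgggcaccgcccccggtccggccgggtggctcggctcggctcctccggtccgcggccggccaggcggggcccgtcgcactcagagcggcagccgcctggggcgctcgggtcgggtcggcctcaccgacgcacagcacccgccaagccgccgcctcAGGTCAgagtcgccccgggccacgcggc
Pparg, γ2 start, chr6:115421816-115422065, plus strand, GRCm38.p6: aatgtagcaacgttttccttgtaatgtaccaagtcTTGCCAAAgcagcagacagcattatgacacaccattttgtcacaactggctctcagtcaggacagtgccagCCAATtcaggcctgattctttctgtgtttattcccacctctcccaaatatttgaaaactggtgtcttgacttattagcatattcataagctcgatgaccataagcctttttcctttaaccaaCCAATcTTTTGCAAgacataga

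In windows of 300 bases (250 before and 50 after the start), GC content was 80.3% at the most upstream start and 40.3% at the γ2 start. The γ2 window held 2 C/EBP matches, which start 215 and 16 bases before the start, and 2 CCAAT boxes. At least 1 C/EBP match was present in 10.8% of all 32841 promoters of the table, and at least 1 CCAAT box in 37.4%. The most upstream window held neither and had 1 core AGGTCA, a motif of 16.3% of promoters. Among the 11 windows of the 6 genes, the complete PPAR and RXR element (DR1, 2 copies of AGGTCA spaced by 1 base) was not found on either strand, and it was present in 0.0396% of all windows. These matches describe letters only.

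*Pparg* was the member with the widest range among those above 1 RPKM in every library, from 11.5 RPKM in K36M cells at D0 to 101 in WT cells at D7. In WT cells it had 13.4 RPKM [12.2, 14.6] (D0), 66.7 (D2), and 101 [97.1, 105] (D7). The values in K36M cells were 11.5 (D0), 49.6 (D2), and 21.4 (D7). The K36M cells thus rose nearly as steeply as WT cells over the first days and then fell back, whereas WT cells went on rising.
From D0 to D2 *Pparg* rose by a log2 ratio of 2.32 [2.18, 2.46] in WT and 2.11 [1.94, 2.27] in K36M cells. The difference between these responses was -0.21 [-0.43, 0.00]. From D2 to D7 it changed by 0.60 [0.52, 0.68] in WT and by -1.21 [-1.37, -1.06] in K36M cells, and this difference of -1.81 [-1.99, -1.64] was the largest between K36M and WT cells among the D0 to D2, D2 to D7, and Rosi responses for a member above 1 RPKM in all libraries. Against WT cells of the same day, K36M cells had *Pparg* at a log2 ratio of -0.21 (D0), -0.43 (D2), and -2.24 [-2.39, -2.10] (D7). The Ctrl cells of the other experiment stood at -0.10 against WT at D0 and at -0.82 [-0.92, -0.72] at D2. The D2 difference between K36M and WT was therefore smaller than that between 2 control libraries, and D7 has no second control. Adipocyte markers (7 genes) summed to 3543 RPKM in WT and 204 in K36M cells at D7, and preadipocyte markers (6 genes) to 304 and 679, and their part in the D7 difference was not tested.

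**Figure D1:**
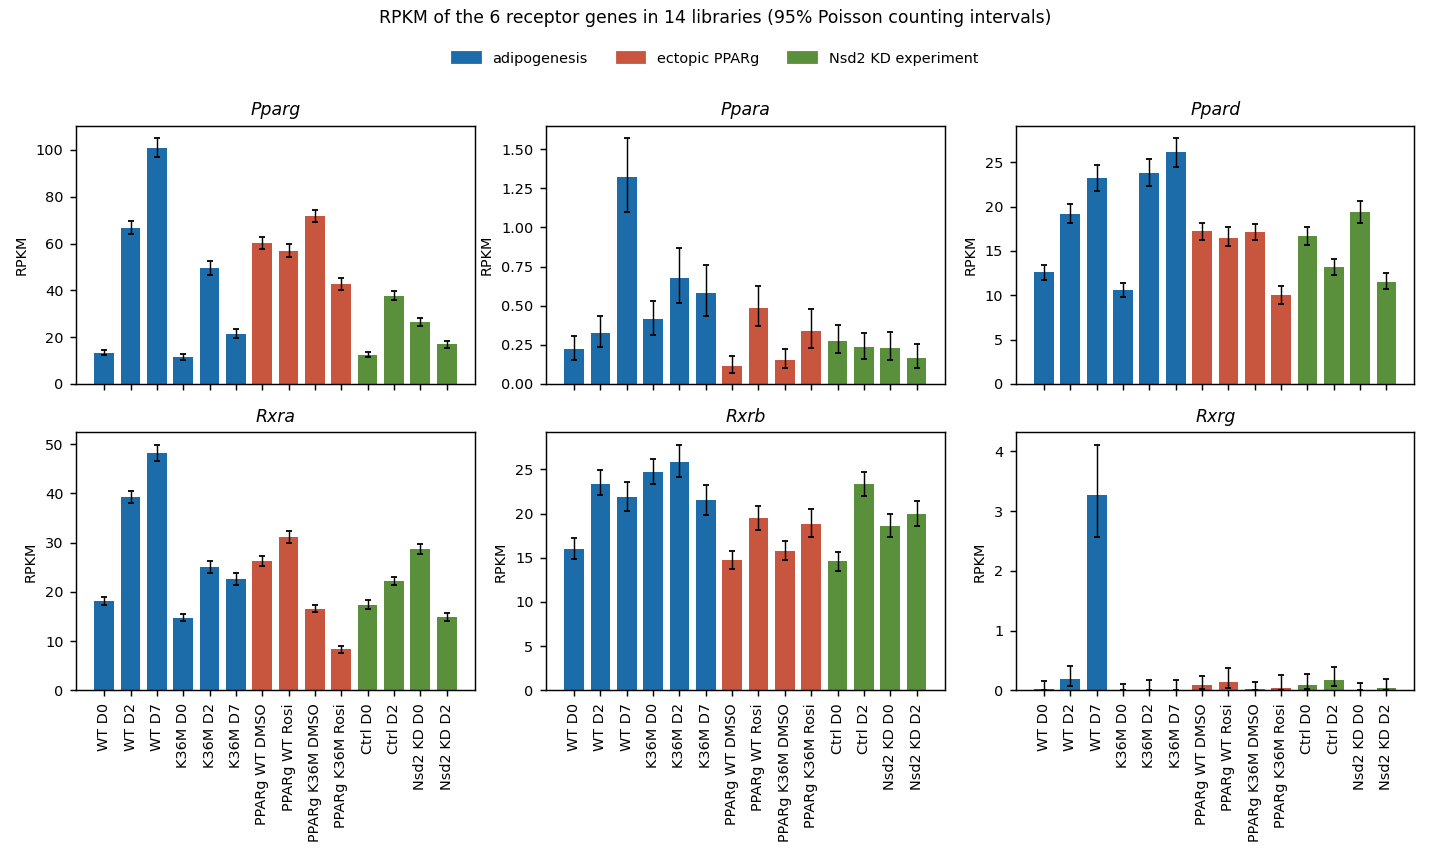
RPKM of each member (bars) in each of the 14 libraries, with 95% Poisson counting intervals from the recovered reads and colours for the experiments. *Pparg* and *Rxra* are highest in WT cells at D7 (101 and 48.2), *Rxrb* stays between 14.6 and 25.9, and *Rxrg* is above 1 only in WT cells at D7.

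The Nsd2 KD cells began high and moved the other way. *Pparg* was 12.5 RPKM in D0 Ctrl cells and 37.7 in those of D2, whereas Nsd2 KD cells had 26.4 at D0 and 16.9 at D2. At D0 the knockdown cells therefore held 2.11-fold more *Pparg* RNA than Ctrl cells, with a log2 ratio of 1.08 [0.91, 1.25], and at D2 2.23-fold less, with -1.16 [-1.30, -1.01]. Nsd2 KD cells had the highest *Pparg* value of the 4 libraries at D0 without the PPARγ vector and the lowest of the 4 at D2. Between D0 and D2 it fell by 0.64 on the log2 scale in Nsd2 KD cells and rose by 1.59 in Ctrl cells, a difference of -2.23 [-2.45, -2.01]. Adipocyte markers summed to 1388 RPKM in Ctrl and 40.0 in Nsd2 KD cells at D2, and preadipocyte markers to 49.1 and 37.2. The part of these markers in the *Pparg* difference was not tested.

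With the PPARγ vector, *Pparg* stood at 60.2 RPKM in WT cells with DMSO, 56.8 with Rosi, 71.8 in K36M cells with DMSO, and 42.6 with Rosi. The WT cells with vector and DMSO were 4.50-fold above WT cells at D0, which come from another experiment, and below the 66.7 RPKM of WT cells at D2. Rosi against DMSO gave -0.08 [-0.18, 0.01] in WT and -0.75 [-0.86, -0.65] in K36M cells. Reads from the vector and from the endogenous gene cannot be told apart in these values.

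The 2 *Pparg* transcripts could not be separated by their levels, since they share 1642 bases of exon and most reads were counted for both. In WT cells at D7 they had 97.8 RPKM (γ1) and 101 RPKM (γ2), and over the 14 libraries the γ2 value was 0.978 to 1.06 times the γ1 value. The difference in reads between the rows is the reads on γ1-only exons minus those on the γ2-only exon. It was positive in all 10 libraries without the vector, from 9 reads in WT cells at D0 and K36M cells at D7 to 69 in WT cells at D2, and lay between -37 and 1 in the 4 libraries with the vector. That net count was 38 of 851 γ1 reads in Nsd2 KD cells at D0 and 32 of 469 in Ctrl cells at D0. The net count cannot give either isoform alone, and the exons differ in length.

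*Rxra*, the most abundant RXR transcript in 9 of the 14 libraries, moved between days in the same direction as *Pparg* outside the vector experiment. It lies on chromosome 2 from 27531960 to 27618477. In WT cells it measured 18.1, 39.2, and 48.2 RPKM at D0, D2, and D7, and in K36M cells 14.7, 25.0, and 22.7. Ctrl cells had 17.4 (D0) and 22.2 (D2), and Nsd2 KD cells 28.7 (D0) and 14.9 (D2). The Nsd2 KD cells again had the higher value at D0 and the lower at D2. The sizes of the changes differed. From D2 to D7 in K36M cells *Pparg* changed by a log2 ratio of -1.21 and *Rxra* by -0.14. Over the 10 libraries without the vector, Pearson's r between *Pparg* and *Rxra* on log2(RPKM + 1) was 0.92, against 0.53 between *Pparg* and *Rxrb* and 0.29 between *Rxra* and *Rxrb*. These libraries share control conditions and days, and the values are descriptions.

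K36M cells had less *Rxra* than WT cells at each day, with log2 ratios of -0.29 [-0.39, -0.20] (D0), -0.65 [-0.73, -0.57] (D2), and -1.09 or 2.13-fold (D7). The Ctrl against WT ratio was -0.05 at D0 and -0.82 [-0.90, -0.75] at D2, so at D2 the control libraries again lay further apart, but not relative to the median of genes of like GC content, where K36M against WT stood at -0.83 and Ctrl against WT at -0.78. In Nsd2 KD against Ctrl cells the ratio was 0.72 [0.63, 0.81] at D0 and -0.57 [-0.67, -0.48] at D2. From D0 to D2 *Rxra* rose by 1.12 in WT and 0.76 in K36M cells, rose by 0.35 in Ctrl cells, and fell by 0.94 in Nsd2 KD cells.

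With the PPARγ vector *Rxra* was not highest where *Pparg* was. WT cells had 26.2 RPKM of *Rxra* under DMSO and 31.1 under Rosi, and K36M cells 16.6 and 8.34. The last is the lowest *Rxra* value of the 14 libraries, next to 42.6 RPKM of *Pparg*. Rosi against DMSO gave 0.25 [0.17, 0.32] in WT and -0.99 [-1.13, -0.86] in K36M cells, a difference of -1.24 [-1.39, -1.09]. With Rosi, K36M cells stood at -1.90 [-2.03, -1.77] against WT cells, the largest difference between them for *Rxra*.

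**Figure D2:**
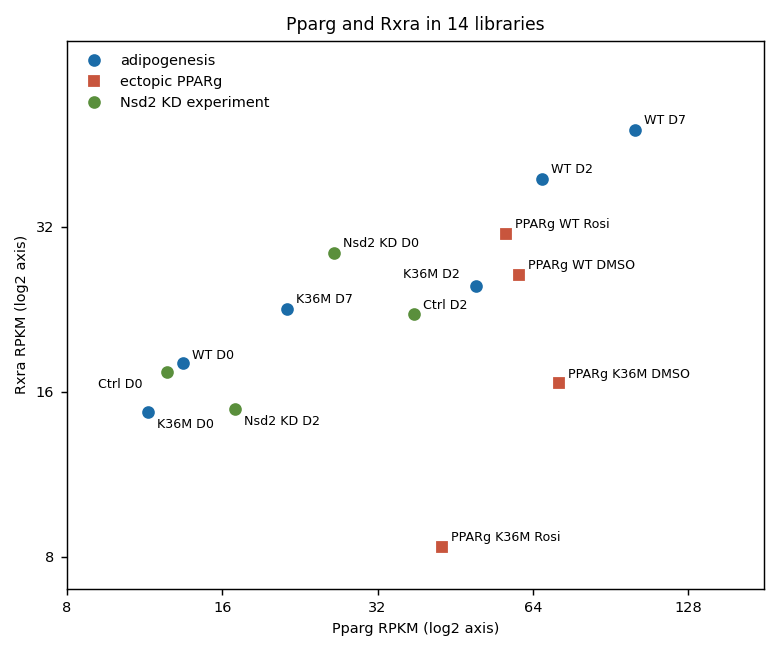
*Rxra* against *Pparg* RPKM (both log2 axes) in the 14 libraries, as circles without and squares with the PPARγ vector. The circles run from K36M D0 (11.5 and 14.7) to WT D7 (101 and 48.2), whereas PPARγ K36M Rosi lies at 42.6 and 8.34.

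*Rxrb*, the second broadly expressed RXR gene (chromosome 17 from 34168757 to 34175338), was the steadiest member, with a 1.78-fold range. It lay at 16.0, 23.4, and 21.9 RPKM in WT cells at D0, D2, and D7, and at 24.7, 25.9, and 21.5 in K36M cells. Ctrl cells had 14.6 at D0 and 23.3 at D2, Nsd2 KD cells 18.6 and 20.0, and the vector libraries 14.8 to 19.5. No comparison put it past 2-fold. Its largest difference between perturbed and control cells was at D0, before induction, where K36M cells stood at 0.63 [0.50, 0.76] against WT cells and the Ctrl against WT ratio was -0.14 [-0.29, 0.01]. *Rxrb* exceeded *Rxra* in 5 libraries, K36M D0, K36M D2, Ctrl D2, PPARγ K36M Rosi, and Nsd2 KD D2, and in K36M D2 and Ctrl D2 the counting intervals of the pair overlapped.

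*Rxrg*, the RXR gene with the narrowest known tissue range (chromosome 1 from 169528515 to 169569754), was seen clearly only in WT cells at D7, with 73 reads and 3.27 RPKM [2.56, 4.11]. WT cells had 1 read at D0 and 6 at D2. The K36M libraries had 0 reads at D0, D2, and D7. In K36M cells at D7, *Rxrg* was at least 22.3-fold lower than in WT cells when 3 reads are taken as the floor of the K36M library. In the other 8 libraries it had at most 6 reads, so ratios there rest on single reads.

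*Ppard*, a widely expressed PPAR gene (chromosome 17 from 28369699 to 28438414), rose in both WT and K36M cells and did not follow *Pparg* down. It stood at 12.6, 19.2, and 23.2 RPKM in WT cells at D0, D2, and D7 and at 10.6, 23.8, and 26.1 in K36M cells. In K36M cells at D7 it was the highest of the 6 members, above *Pparg* at 21.4. From D0 to D2 it rose by 1.17 [1.03, 1.31] in K36M and 0.61 [0.48, 0.74] in WT cells. Ctrl cells went from 16.7 to 13.2 and Nsd2 KD cells from 19.4 to 11.5, so *Ppard* was lower at D2 in both arms of the shRNA experiment. Ctrl cells changed by -0.34 [-0.47, -0.21]. The responses of Ctrl and WT cells thus differed by -0.95 [-1.14, -0.77], more than those of K36M and WT cells, by 0.56 [0.37, 0.75]. With the vector, *Ppard* was 17.2 and 16.5 in WT cells with DMSO and Rosi, and 17.1 and 9.99 in K36M cells.

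*Ppara*, which drives fatty acid oxidation in liver and brown fat (chromosome 15 from 85565413 to 85633249), was scarce, with 18 to 127 reads. In WT cells it measured 0.221 RPKM (D0), 0.327 (D2), and 1.32 [1.10, 1.57] (D7), the highest value of all libraries. K36M cells had 0.412, 0.676, and 0.579. K36M cells thus had more *Ppara* than WT cells at D0 and D2, at log2 ratios of 0.90 [0.27, 1.56] and 1.05 [0.47, 1.64], and less at D7, at -1.19 [-1.69, -0.71]. Rosi libraries were above DMSO libraries, with 0.486 against 0.115 in WT cells, a log2 ratio of 2.08 [1.30, 2.93], and 0.340 against 0.154 in K36M cells, a ratio of 1.14 [0.35, 1.94]. The difference of these responses was -0.94 [-2.00, 0.13], which these reads do not separate from 0. Ctrl and Nsd2 KD libraries lay between 0.165 and 0.274, and none of their ratios had an interval that excluded 0.

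**Figure D3:**
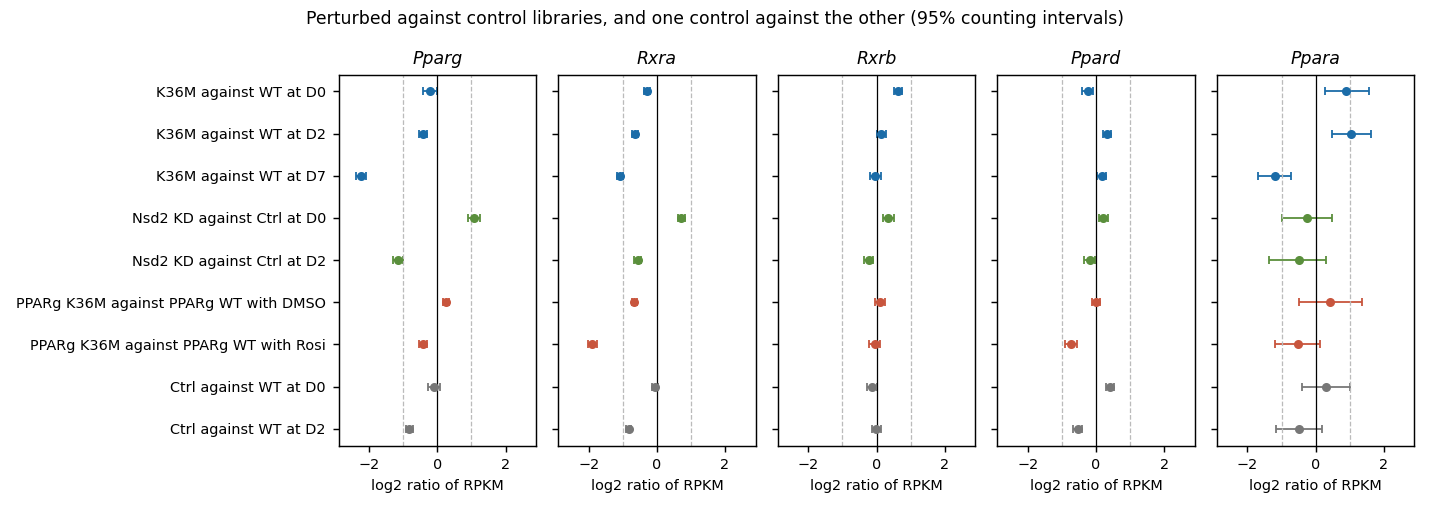
Log2 ratios of RPKM (points) with 95% counting intervals for 5 members, with dashed lines at 2-fold. The last 2 lines set one control against the other, and for *Pparg* and *Rxra* at D2 these (both -0.82) lie further from 0 than K36M against WT (-0.43 and -0.65), an order that for *Rxra* turns relative to its GC class (-0.78 and -0.83).

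Counted by the 2-fold rule, 3 of the 6 members were up-regulated from D0 to D2 in WT cells (*Pparg*, *Rxra*, and *Rxrg*), where 13.6% of all genes with a value above 0 were (25.2% fell), and 2 from D2 to D7 (*Ppara* and *Rxrg*), where 22.4% were. In K36M cells 2 of the 5 members above 0 were up-regulated from D0 to D2 (*Pparg* and *Ppard*), against 16.5% of all genes (19.6% fell), and 1 was down-regulated from D2 to D7 (*Pparg*), against 14.9%. At D7, 4 of 6 were lower in K36M cells by over 2-fold (*Pparg*, *Ppara*, *Rxra*, and *Rxrg*), against 13.2% of all genes, and 3 were, without *Ppara*, when 1 was added to every RPKM. At D2, *Ppara* was higher (22.2% of all genes) and *Rxrg* lower (9.90%), and at D0 *Rxrg* alone was lower, on 1 read, where 12.0% of all genes were. The D7 count is the one furthest from its background, with *Ppard* and *Rxrb* the members left out of it. In Ctrl cells *Pparg* alone was up-regulated from D0 to D2 (17.3% of all genes), and in Nsd2 KD cells *Rxrg* alone, on 1 read (16.9%). Nsd2 KD against Ctrl cells had *Pparg* up at D0 (13.5%) with *Rxrg* down on 3 reads (18.1%), and *Pparg* and *Rxrg* down at D2 (18.5%). Rosi against DMSO had *Ppara* over 2-fold up in WT (17.0%) and in K36M cells (18.3%). *Rxrg* was lower in vector K36M than in vector WT cells with DMSO (8.31%), and *Rxrg* and *Rxra* were with Rosi (12.6%). Vector WT cells with DMSO had *Pparg* and *Rxrg* above WT cells at D0 (19.8%), and Ctrl cells had *Rxrg* above WT cells at D0 (12.0% of all genes, with 23.0% lower). Apart from WT at D7, each of these *Rxrg* calls rests on at most 6 reads.

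The make-up of each family changed with these courses. *Pparg* held 51.1% (D0), 77.4% (D2), and 80.5% (D7) of the summed PPAR RPKM in WT cells. In K36M cells it held 51.2%, 67.0%, and 44.5%, and *Ppard* was the larger share at D7 with 54.3%. In Nsd2 KD cells *Pparg* held 57.4% at D0 and 59.1% at D2, and in Ctrl cells 42.4% and 73.8%. *Rxra* held 65.7% of the summed RXR RPKM in WT cells at D7 and 51.4% in K36M cells, and 30.6% in vector K36M cells with Rosi. The RXR sum was 1.30 times the PPAR sum in WT cells at D0 and 0.585 times at D7, and 0.920 times in K36M cells at D7. It was lowest, 0.365 times, in vector K36M cells with DMSO, where 89.0 RPKM of PPAR faced 32.5 of RXR.

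**Figure D4:**
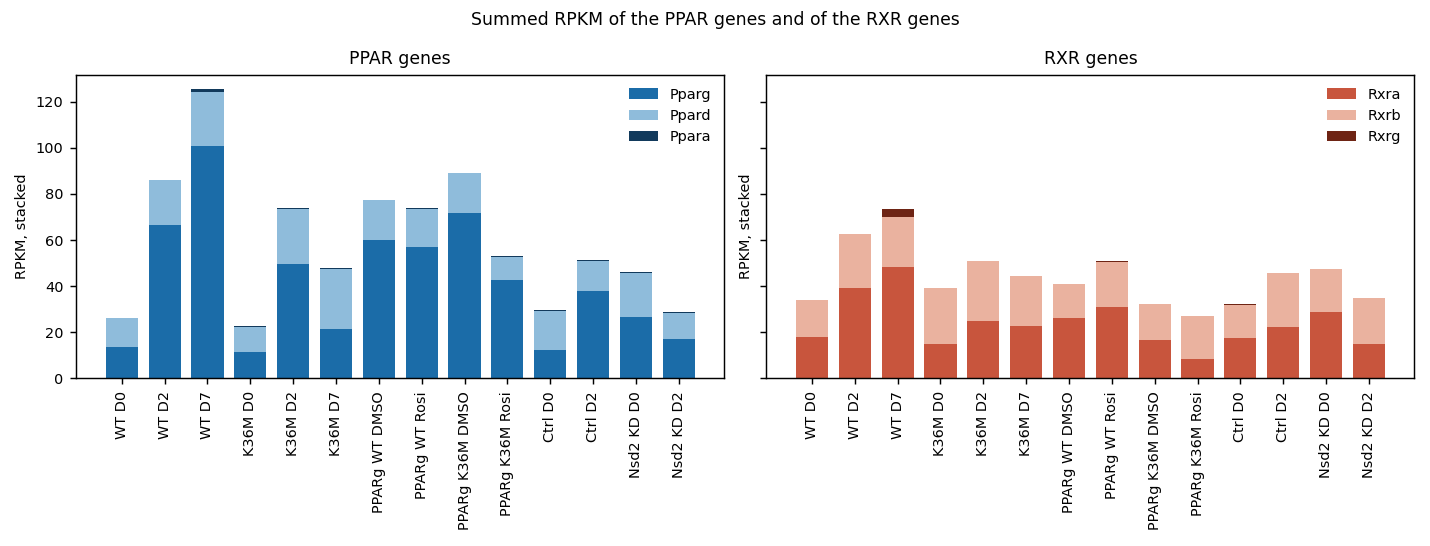
Stacked RPKM of the 3 PPAR genes (left) and the 3 RXR genes (right) in each library. The PPAR sum spans 22.5 (K36M D0) to 126 (WT D7) and the RXR sum 27.2 (PPARγ K36M Rosi) to 73.4 (WT D7).

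Properties of whole libraries moved with some of these ratios. Genes were ranked by the GC content of their transcripts and split into 5 classes, with medians over genes with at least 1 RPKM in both libraries. From D0 to D2 in Nsd2 KD cells the median log2 ratio was 0.43 in the lowest class and -0.34 in the highest, and in Ctrl cells 0.29 and -0.20. *Rxra* (57.0% GC), *Ppard* (59.5%), and *Rxrb* (59.0%) are in the highest class, and *Pparg* (45.2%) is in the second, with medians of 0.25 in Nsd2 KD and 0.19 in Ctrl cells. Relative to the median of its class, *Pparg* fell by 0.89 on the log2 scale in Nsd2 KD cells, *Rxra* fell by 0.60, and *Ppard* fell by 0.41. *Rxrb* rose by 0.44 on this measure. In Ctrl cells the values were 1.40 (*Pparg*), 0.55 (*Rxra*), -0.14 (*Ppard*), and 0.88 (*Rxrb*). With Rosi, vector K36M against vector WT cells had a median of -0.16 in the highest GC class, and -0.29 in the length class with the longest transcripts, which holds *Rxra* (5267 bases). The *Rxra* ratio there was -1.74 relative to its GC class. Ctrl against WT cells had medians from -0.55 in the lowest to 0.10 in the highest GC class at D0, and from -0.23 to -0.04 at D2. Relative to its class, *Pparg* in this comparison was 0.27 at D0, against -0.10 without centring, and -0.65 at D2. Nsd2 KD against Ctrl cells differed little by GC at D0 (medians of -0.06 to 0.05) and D2 (-0.10 to 0.07).

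Genes known to act on *Pparg* expression were read beside it. Of 11 inducers, 7 rose over 2-fold and 0 fell from D0 to D2 in Ctrl cells, and 5 rose and 1 fell in Nsd2 KD cells. Over all genes 17.3% rose and 23.4% fell in Ctrl cells, and 16.9% and 24.5% in Nsd2 KD cells. *Cebpa*, whose product binds the *Pparg* promoters and is induced by PPARγ in turn, measured 14.7 RPKM (D0) and 78.7 (D2) for Ctrl and 0.239 and 4.80 for Nsd2 KD cells. At D0 the Nsd2 KD library thus paired the highest D0 value of *Pparg* with the lowest of *Cebpa*. Against Ctrl cells, Nsd2 KD cells had 1 of the 11 inducers higher over 2-fold and 4 lower at D0 (13.5% and 18.1% of all genes), and 1 higher and 6 lower at D2 (12.0% and 18.5%). *Klf5*, an early inducer, was 7.65 against 1.35 RPKM in Nsd2 KD and Ctrl cells at D0, and *Cebpd* was 5.03 against 25.3. *Klf2*, a repressor of *Pparg* in preadipocytes, had 0.284 RPKM in Nsd2 KD and 9.09 in Ctrl cells at D0. Of 8 repressors it alone was lower over 2-fold and 1 was higher, near the shares of all genes (18.1% and 13.5%).

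In K36M against WT cells at D7, 5 of 11 inducers were lower over 2-fold and 1 was higher, next to 13.2% and 19.7% of all genes. *Cebpa* stood at 24.4 RPKM in K36M and 232 in WT cells. *Gata2*, which represses *Pparg*, had 9.97 RPKM in K36M and 3.13 in WT cells. Of 8 repressors 2 were higher and 1 lower, near the shares of all genes (19.7% and 13.2%). At D2 *Cebpa* was already apart, with 44.9 in K36M and 208 in WT cells, on a day when *Pparg* differed by -0.43. The Ctrl value of *Cebpa* at D2 was 78.7.

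Coregulators bind the receptors and set their activity. Of 11 coactivators, 4 were lower over 2-fold and 0 higher in K36M than in WT cells at D7, where 13.2% and 19.7% of all genes were. Among the 4 were *Ppargc1a* (0.228 against 6.32 RPKM) and *Ppargc1b* (2.40 against 10.4), which encode the PGC-1 coactivators of mitochondrial and thermogenic genes. *Ppargc1b* was 1.24 in Nsd2 KD and 6.51 in Ctrl cells at D2. Of 7 corepressors, 1 was lower at D7, a share near that of all genes. It was *Nrip1*, with 4.25 against 30.3 RPKM. *Hdac3*, a histone deacetylase of the corepressor complex, had 27.7 against 28.9.

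RXRs also serve other receptors. Of 13 further RXR partners, 4 were higher over 2-fold and 0 lower in K36M than in WT cells at D2 (22.2% and 9.90% of all genes), but 2 of the 4 rest on at most 2 reads. *Vdr*, the vitamin D receptor, had 101 RPKM in K36M and 32.4 in WT cells at D2, and 122 in Nsd2 KD and 22.3 in Ctrl cells. In both perturbed D2 libraries *Vdr* was therefore far above *Pparg* and *Rxra*, while in the WT and Ctrl libraries of D2 it was below *Pparg*. At D7 it was 15.0 in K36M and 14.6 in WT cells. In K36M against WT cells at D7, 2 partners were higher over 2-fold, 1 of them on 3 reads, and 2 were lower (19.7% and 13.2% of all genes), with a median log2 ratio of 0.21 over 8 genes with at least 1 RPKM in both, next to 0.11 over all genes. *Rarg*, a retinoic acid receptor gene, had 25.2 RPKM in K36M and 12.4 in WT cells. *Nr1h3*, which encodes the oxysterol receptor LXRα, had 9.81 in K36M and 22.2 in WT cells at D7, and *Thra*, a thyroid hormone receptor gene, had 25.6 and 40.6.

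The known target genes were compared in 2 lists of 18, one of adipocyte genes driven by PPARγ and one of fatty acid oxidation and fasting genes that several PPARs share. In WT cells from D0 to D2, 16 of the 17 PPARγ targets above 0 rose over 2-fold and 0 fell, and in K36M cells 16 rose and 1 fell. Of all genes, 13.6% rose and 25.2% fell in the WT libraries, and 16.5% rose and 19.6% fell in the K36M ones. In Ctrl cells 16 rose and 0 fell (17.3% and 23.4% of all genes), and in Nsd2 KD cells 10 of 16 rose and 1 fell (16.9% and 24.5%). With 1 added to every RPKM, 3 rose and 0 fell in Nsd2 KD cells and 12 rose in WT cells. These counts do not compare with the 16 found without the addition. At D2, 10 of 17 were lower over 2-fold in K36M than in WT cells and 2 were higher (9.90% and 22.2% of all genes), with a median log2 ratio of -1.36 over the 12 with at least 1 RPKM in both, and Ctrl against WT cells gave 6 lower, 1 higher (15.6% and 12.2%), and a median of -0.90. Nsd2 KD against Ctrl cells at D2 gave 17 of 18 lower and 1 higher (18.5% and 12.0% of all genes), or 11 lower and 0 higher with 1 added to every RPKM. *Fabp4*, a fatty acid carrier, had 1473 RPKM in K36M and 3249 in WT cells at D2, and 34.5 in Nsd2 KD and 1269 in Ctrl cells. Lipoprotein lipase, *Lpl*, had 470 and 2145, and 105 and 1073. *Fabp4* made up most of the adipocyte marker sums of these libraries (1607, 3589, 40.0, and 1388 RPKM in the same order). Of the shared targets at D2, 9 of 17 were lower over 2-fold and 0 higher in Nsd2 KD than in Ctrl cells. Over all genes these shares were 18.5% and 12.0%, and the list median was -0.55 over 12 genes. In K36M against WT cells 1 of 18 was lower and 7 were higher (9.90% and 22.2%), with a median of 0.04. Ctrl against WT cells gave 4 lower, 2 higher (15.6% and 12.2%), and a median of -0.50.

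In the vector cells with Rosi the PPARγ targets were far lower in K36M cells and the shared targets were not. All 17 PPARγ targets above 0 were lower in K36M cells by over 2-fold, where 12.6% of all genes were, and the median was -2.32 over the 12 with at least 1 RPKM in both. *Adipoq*, which encodes adiponectin, had 5.64 against 132 RPKM and *Plin1*, a lipid droplet coat gene, 12.1 against 148. Of the 18 shared PPAR targets, 0 were lower and 6 were higher over 2-fold, where 28.4% of all genes were higher, a share near that of the list, and their median was -0.08 over 15 genes, next to -0.11 over all genes. The share of all genes is over 20699 genes, of which 10821 had at least 1 RPKM in both libraries, so it includes many genes with few reads. *Plin2*, the droplet coat gene of many tissues, had 742 against 322 RPKM, *Angptl4*, a fasting-induced inhibitor of lipoprotein lipase, 611 against 400, and *Cpt1b*, a carnitine transferase, 7.15 against 2.51. Genes of both lists were higher with Rosi than with DMSO in both kinds of cells. In WT cells 16 of 17 PPARγ targets and 12 of 17 shared targets were higher over 2-fold (17.0% of all genes), and in K36M cells 11 of 16 and 10 of 18 were (18.3%), with 0 lower. In the same Rosi libraries *Rxra* was 3.73-fold and *Pparg* 1.33-fold lower in K36M cells, adipocyte markers summed to 1206 RPKM in K36M and 3057 in WT cells, and preadipocyte markers to 78.1 and 134. Because most adipocyte markers are also PPARγ targets of the list, their sum is not a separate observation. The lists were chosen with earlier results of these data known, and their difference was not tested.

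**Figure D5:**
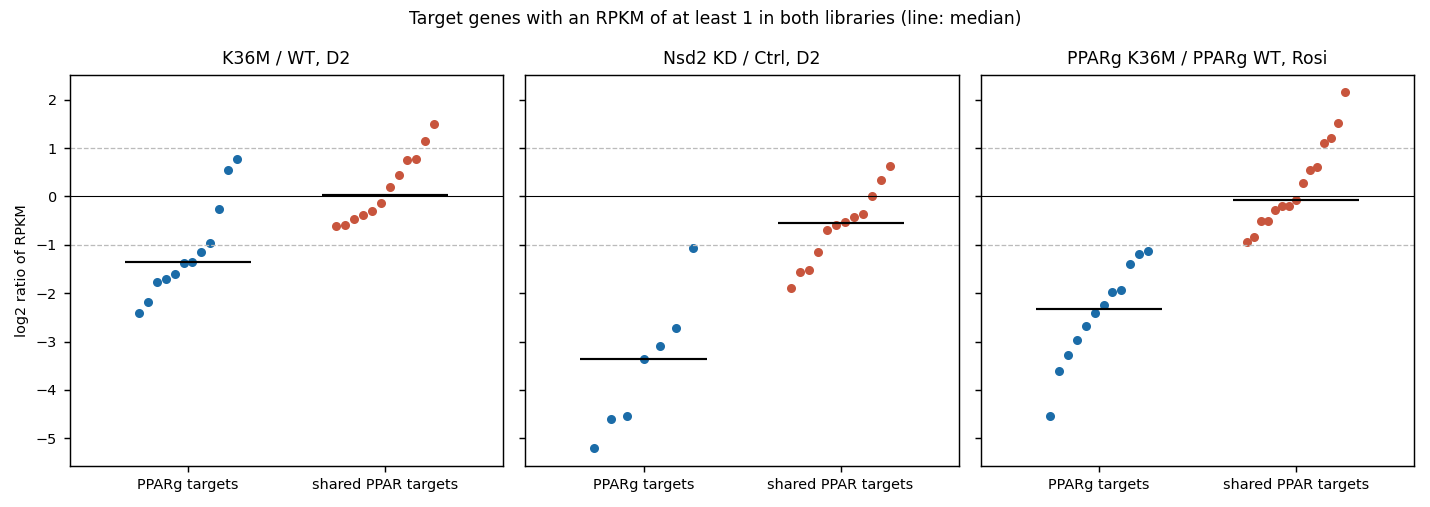
Log2 ratios of RPKM for genes of the 2 target lists with at least 1 RPKM in both libraries (points, sorted within a list), with the median as a bar and 2-fold as dashed lines. With Rosi the PPARγ targets have a median of -2.32 and the shared targets one of -0.08. At D2 K36M against WT gives -1.36 and 0.04, and Nsd2 KD against Ctrl gives -3.36 and -0.55.

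The D7 libraries showed both lists lower. In K36M against WT cells, 15 of 17 PPARγ targets were lower over 2-fold and 0 higher (13.2% and 19.7% of all genes), and 8 of 17 shared targets were lower with 1 higher. The one that was higher, *Cpt1a*, a carnitine transferase that controls entry of fatty acids into mitochondria, had 47.3 against 9.67 RPKM. It was also 62.0 in Nsd2 KD and 15.2 in Ctrl cells at D0. *Fabp5*, a carrier that delivers ligand to PPARδ, had 37.7 RPKM in K36M and 482 in WT cells at D2, and 23.3 in Nsd2 KD and 358 in Ctrl cells. The retinoic acid carrier gene *Crabp1* had 14.4 in K36M and 0.706 in WT cells at D2.

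Among 8501 genes with a mean of at least 5 RPKM in the 10 libraries without the vector, those whose log2(RPKM + 1) tracked *Pparg* most closely were *Mpdu1* (r = 0.98), *Lss* (0.98), and *Cox6a1* (0.97). *Rxra* was tracked by *Poldip2* (0.97), *Pnkd* (0.96), and *Ndufb5* (0.94), *Ppard* by *Ptges* (0.95) and *Gpr137* (0.94), and *Rxrb* by *Ptcd1* (0.93), *Csnk2b* (0.92), and *Proser1* (0.92). *Mpdu1* had 26.4 RPKM at D0 and 24.0 at D2 in Nsd2 KD cells, against 15.8 and 35.6 in Ctrl cells. These libraries are among the 10 by which it was chosen, so its likeness to *Pparg* in them is not a separate observation. No other member was among the 3 genes nearest to a member.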

How the data were processed

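The 14 RNA-Seq libraries of cultured preadipocytes were used out of 34 samples, and the other samples were not used here. The authors deposited RPKM for 29082 RefSeq transcripts per library. The submitters' processing notes name CASAVA 1.8.2, SICER, and the build mm9. The program that counted RNA-Seq reads is not given in the sources used here. Symbols were matched for 28436 transcripts, giving 23109 genes. Of 26946 transcripts with a value in 2 or more libraries, 26945 (99.9963%) gave whole reads. Intervals at 95% are Clopper-Pearson for ratios, Poisson for levels, and a normal approximation for differences of responses. A gene above 0 in at least 1 of 2 libraries was called past 2-fold, with 0 kept as 0. The shares of all genes therefore include genes with few reads. A floor of 3 reads stood in for 0 only in the fold given for *Rxrg* at D7. The 18 comparisons were made without any test because conditions had 1 library. The members and lists were chosen with earlier results of these data known. Named list genes are the 3 with the highest mean and the 3 with the largest ratio at 5 RPKM or more in a list and comparison, and *Ucp1*, *Cidea*, and *Acta1* are named as markers. Some genes that the rule would name are not reported here. mm9 coordinates are from GENCODE M1, GC content from its transcripts. Alternatives were an RPKM filter, pseudocounts of 0.1 and 1, median-ratio scaling, summed transcripts, and an interval condition. GC classes (5 by content) and the settings for lists were added after seeing the data. Recovery, calls, and intervals were tested on simulated data. Python 3.11.15, pandas 2.3.3, and SciPy 1.17.1 were used.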

Additional observations from a re-analysis of the deposited data

Results flagged for a closer look

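Members moved in opposite directions in paired comparisons, each on 1 library per condition, and none of these differences was tested against replicates. From D2 to D7 *Pparg* changed by a log2 ratio of 0.60 in WT and -1.21 in K36M cells, and *Rxra* by 0.30 and -0.14. With Rosi against DMSO, *Rxra* changed by 0.25 in WT and -0.99 in K36M cells carrying the PPARγ vector. From D0 to D2 *Pparg* changed by 1.59 in Ctrl and -0.64 in Nsd2 KD cells, and *Rxra* by 0.35 and -0.94. *Ppard* changed by 0.61 in WT and -0.34 in Ctrl cells, both controls.

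K36M against WT cells changed sign between days for *Ppard*, at -0.25 at D0, 0.31 at D2, and 0.17 at D7, and for *Ppara*, at 0.90, 1.05, and -1.19. Relative to its GC class *Ppard* was -0.34, 0.13, and -0.05, so its direction at D7 was not kept. With the vector, *Pparg* in K36M against WT cells was 0.25 with DMSO and -0.41 with Rosi. Nsd2 KD against Ctrl cells changed sign between D0 and D2 for all 4 members above 1 RPKM in every library, with *Pparg* at 1.08 and -1.16, *Rxra* at 0.72 and -0.57, *Rxrb* at 0.35 and -0.22, and *Ppard* at 0.21 and -0.19.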

How the results depend on the processing

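No paired analysis was possible because each condition had 1 library, and no library could be left out for the same reason. No called direction of a member reversed under any alternative, and the calls that were lost are those of *Rxrg* or *Ppara*. Here a count moved when it changed by over 1.5 times. When 1 library had to reach an RPKM of 1, 11 of 18 member counts moved, and WT from D0 to D2 went from 3 to 2 by losing *Rxrg*. They became 0 for K36M against WT at D0 and D2, Rosi in WT and in K36M cells, vector K36M against WT with DMSO, Nsd2 KD from D0 to D2, and Ctrl against WT at D0, and 1 for vector K36M against WT with Rosi, vector WT with DMSO against WT D0, and Nsd2 KD against Ctrl at D0 and D2. A pseudocount of 1 moved 12 counts, the same 11 to the same values and WT from D2 to D7 to 1. It also took WT from D0 to D2 to 2 by losing *Rxrg*, and K36M against WT at D7 from 4 to 3 by losing *Ppara*. A pseudocount of 0.1 moved 9, to the same values except that K36M against WT at D2 was 1, with Rosi in WT cells and Nsd2 KD against Ctrl at D2 not moved. Requiring the counting interval to exclude a ratio of 1 moved 9, with K36M against WT at D2 at 1 and both Rosi counts not moved, and WT from D0 to D2 became 2. Median-ratio scaling moved 1 count, Nsd2 KD from D0 to D2, to 2 by adding *Rxra*, and shifted the median of all genes by up to 0.25 (log2). Centring on the GC class, chosen after seeing the data, moved 1, Rosi in K36M cells, to 2 by adding *Rxrg*, which had 1 read in each library. Centring also moved 34 of 97 log2 ratios by more than counting error. Summing transcripts moved 0. Among the counts of listed pathway genes, a pseudocount of 1 moved 109 and left 179, the RPKM filter moved 61, a pseudocount of 0.1 moved 45, scaling moved 7, and summing moved 4. With a pseudocount of 1, PPARγ targets up from D0 to D2 went from 16 to 12 in WT and from 10 to 3 in Nsd2 KD cells, those lower with Rosi in K36M cells from 17 to 13, and those lower at D7 from 15 to 14, and RXR partners higher at D2 went from 4 to 2. Counts of 1 to 6 reads limit *Rxrg* outside WT D7.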
